A study of Mus musculus with 24 samples.

Results

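The CD-numbered cell surface antigens are genes named after the cluster of differentiation numbers given to leukocyte and other surface molecules. They were taken from the array by name alone: every row whose annotated symbol is Cd, then digits and up to 2 letters, in any case of letters. That rule found 92 of 26423 probe rows, which stand for 80 of the 17742 genes measured. The muscle came from the tibialis anterior of mice aged 6 months, on a mixed C57BL6/J and 129S1/SvImJ background. The 4 control animals had the genotype Myf6 cre/+; Hira flox/+ and the 4 knockout animals Myf6 cre/+; Hira flox/-. Both groups therefore carried the Cre recombinase at the Myf6 locus, which is active in muscle fibres, and 1 floxed copy of Hira. The second copy was intact in controls and null in the knockout, and a null copy lies in every cell of the animal, leukocytes and endothelium included. RNA of each animal was hybridised 3 times, so 24 arrays describe 8 animals.

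HIRA is a chaperone that deposits the histone variant H3.3, and the series compares muscle with and without it in the fibres. CD antigens are receptors, adhesion molecules and ligands. Many are used to tell cell types apart: CD3 chains mark T cells, CD79 chains B cells, CD68 and CD163 macrophages, and CD34 and CD93 vascular cells. In resting muscle most RNA comes from fibres, and leukocytes are few. Some CD antigens, among them the tetraspanins and the fatty acid transporter CD36, are made by many cell types, fibres included. Whole muscle was measured, so a change in the number of cells and a change in RNA per cell cannot be told apart in any value given here.

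The members were sorted by where they are best known to be made. There were 28 macrophage and myeloid members, 28 lymphocyte and shared leukocyte members, 4 of endothelium and vascular stroma and 19 of broad expression. The remaining gene, Cd2ap, meets the naming rule but encodes an adaptor protein inside the cell. Levels are deposited probe intensities on a linear scale, given per animal as the geometric mean of its 3 hybridisations; differences are log2 knockout minus control. Since probes differ in brightness, intensities of different probes are not read as amounts of RNA relative to one another; brightness serves only to choose rows and members to name, and sums over a list are compared only between animals. A gene was called dim in a group when its mean there was at or below 125, the highest 5th percentile of any array. That array was hybridisation 1 of control animal 4. The array's Hira row measured 462, 554, 485 and 509 in control animals 1 to 4 and 397, 633, 368 and 454 in knockout animals 1 to 4. The groups overlapped and Hira was not called (-0.15, adjusted p = 0.623, limma); whether its probe lies in the deleted part is not known here, so this row does not check the genotype. By the dim measure 69 members were above the dim level in both groups, 2 in 1 group and 9 in neither. The dim ones included Cd63 and Cd99, which most tissues make, so a dim row says little about the gene's RNA.

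Over the 80 members, 9 changed, 5 higher and 4 lower in the knockout (limma on the 8 animal means, adjusted p under 0.05 over all 17742 genes). That is 11.25% of the members, beside 9.28% of all genes tested. Members called higher made up 6.25%, beside 4.28% of all genes, and members called lower 5%, beside 5.01%. The share of changed members was thus near that of the array as a whole. Cd28, Cd276, Cd24a, Cd302 and Cd3e rose; Cd209f, Cd163, Cd160 and Cd79b fell. The 4 control and 4 knockout animals did not overlap in 16 members, or 20% (6 higher, 10 lower), beside 17.5% of all genes. At an unadjusted p under 0.05 (limma) there were 24 of the 80 members, beside 4264 of all 17742 genes. The median difference over the members was -0.039, beside -0.066 over all genes. Leaving out control animal 1 left 5 calls (5.99% of all genes were then called), control animal 3 left 4 (6.83%) and knockout animal 3 left 5 (5.33%). Leaving out hybridisation 2 of every animal left 5 (6.22%). The labels' animal numbers fall into a lower and a higher run, with 2 animals of each genotype in each; within the lower run alone 1 member was called (0.349% of all genes) and within the higher run 3 (2.86%).

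**Figure D1:**
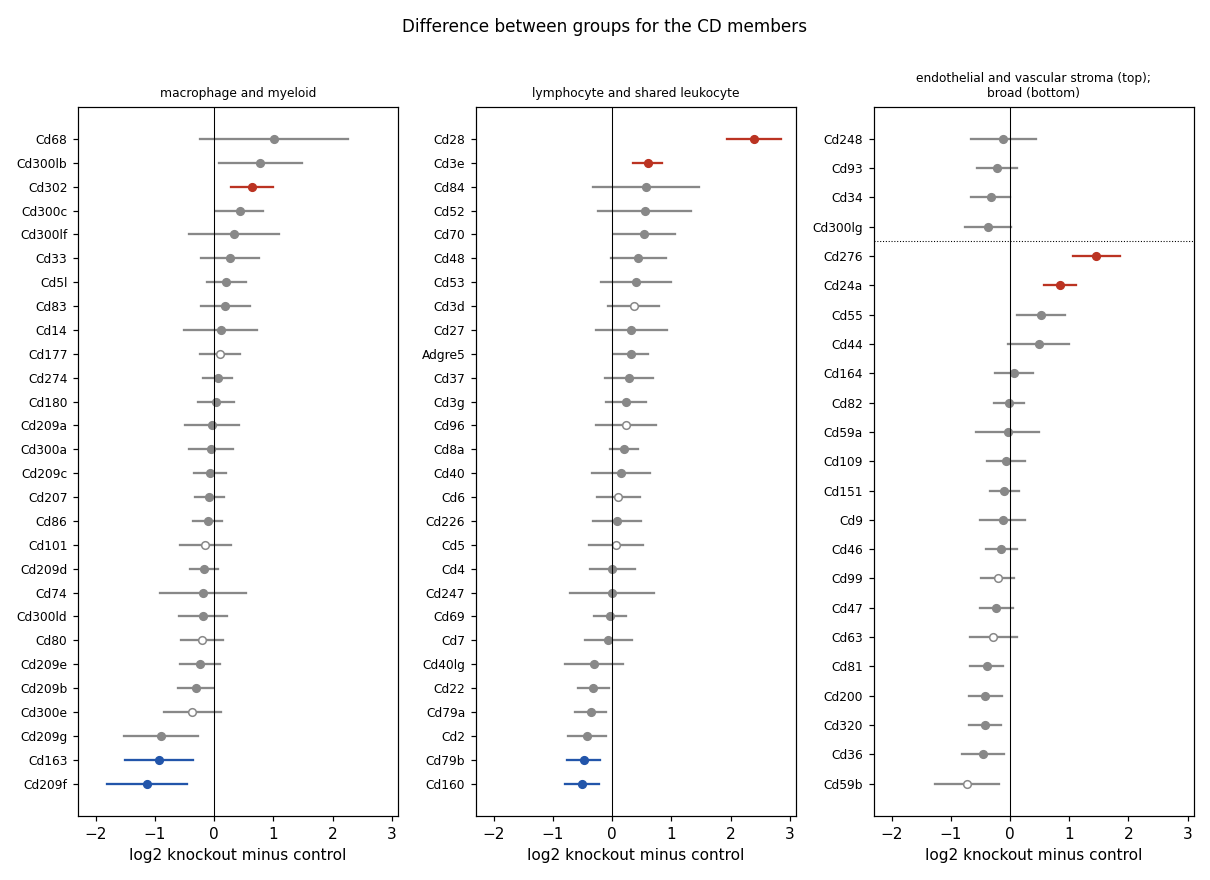
Difference in log2 intensity between knockout and control muscle for 79 of the members (Cd2ap left out), with 95% intervals from limma, by expression group; the dotted line parts the 4 endothelial and stromal members from the 19 broad ones. Red marks members called higher, blue members called lower, grey those not called, and open circles those dim in at least 1 group; Cd28 lies farthest to the right at 2.40 and Cd209f farthest to the left at -1.13.

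To show the DNA at the start of the members with the greatest changes, promoter windows were read from RefSeq (build GRCm38.p6), which held one for 57 of the 80 members. Cd276 is the member with the largest rise among them, and Cd163, Cd209f and Cd209g are the myeloid members with the largest negative differences. Each window runs from 250 bases before to 50 after the gene's start, 5′ to 3′ on the gene's strand. Capitals mark any match, on either strand, to 1 of 3 motifs. The first is the TATA box, with the letters TATAAA. The second is the core of the site of PU.1, a factor of myeloid and B cells, with the letters GAGGAA. The third is an E-box of the kind bound by myogenic factors, with the letters CAGCTG. No printed window held more than 1 match, so none overlap.
Cd276, chr9:58554984-58555283, minus strand: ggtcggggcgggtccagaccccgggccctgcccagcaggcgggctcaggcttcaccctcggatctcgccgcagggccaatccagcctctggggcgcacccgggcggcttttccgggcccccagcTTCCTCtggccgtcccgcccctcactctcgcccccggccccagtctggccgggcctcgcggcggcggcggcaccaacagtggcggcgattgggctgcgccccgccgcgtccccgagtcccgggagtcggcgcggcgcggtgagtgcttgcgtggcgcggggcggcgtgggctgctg
Cd163, chr6:124304401-124304700, plus strand: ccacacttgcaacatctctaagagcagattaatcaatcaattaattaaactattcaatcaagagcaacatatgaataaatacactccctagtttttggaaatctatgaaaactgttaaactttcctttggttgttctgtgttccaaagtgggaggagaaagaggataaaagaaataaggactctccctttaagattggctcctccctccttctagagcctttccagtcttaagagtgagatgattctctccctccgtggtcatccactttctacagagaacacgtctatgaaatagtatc
Cd209f, chr8:4105715-4106014, minus strand: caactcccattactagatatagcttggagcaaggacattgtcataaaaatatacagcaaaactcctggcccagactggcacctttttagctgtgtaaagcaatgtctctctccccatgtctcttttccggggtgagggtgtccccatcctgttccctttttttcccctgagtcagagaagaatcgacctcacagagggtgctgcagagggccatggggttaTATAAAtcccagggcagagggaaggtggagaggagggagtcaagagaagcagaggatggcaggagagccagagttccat
Cd209g, chr8:4134486-4134785, plus strand: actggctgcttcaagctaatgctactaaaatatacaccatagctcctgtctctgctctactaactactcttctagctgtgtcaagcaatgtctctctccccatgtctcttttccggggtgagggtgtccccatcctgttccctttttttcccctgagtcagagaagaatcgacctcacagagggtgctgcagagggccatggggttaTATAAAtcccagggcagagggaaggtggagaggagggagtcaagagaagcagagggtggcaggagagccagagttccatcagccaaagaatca

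The Cd276 window was rich in G and C (78.3%) and held 39 CG dinucleotides, beside medians of 52.7% and 7 over all 32851 windows of this length. The Cd163 window held 2 CG dinucleotides at 38.0% G and C. The windows of Cd209f and Cd209g, neighbours in 1 lectin gene cluster that are read from opposite strands, shared an identical run of 180 bases. The same TATAAA lies in that run, 29 bases before the start of Cd209f and 43 before that of Cd209g. TATAAA was found in 13.6% of all windows and in 7 of 25 windows of macrophage and myeloid members (28.0%). GAGGAA was found in 28.3% of all windows, in 10 of 25 myeloid windows and in 9 of 16 lymphocyte windows (56.2%). CAGCTG was in 16.3% of all windows and 15.4% of the 65 member windows. These matches describe letters in a window and were not tested; some genes have more than 1 window.

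The largest change of any member was in Cd28, the receptor through which CD80 and CD86 costimulate T cells. Its intensity was 314, 261, 412 and 372 in control animals 1 to 4 and 1512, 1784, 2600 and 1389 in knockout animals 1 to 4. The lowest knockout animal thus lay more than 3 times above the highest control. Cd28 rose 5.28-fold (log2 difference 2.40 ± 0.21, SE; 95% interval 1.95 to 2.85; adjusted p = 7.9e-05, limma). All 12 knockout arrays lay above all 12 control arrays. The call held in each of the 26 other settings tried, the 2 runs of animal numbers among them (2.52 and 2.28).

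Other T cell members had smaller differences. Cd3e, the epsilon chain of the T cell receptor complex, stood at 1111, 1115, 964 and 1040 in control animals and 1492, 1604, 1594 and 1711 in knockout animals. It rose 1.51-fold, with no overlap between groups or between arrays (log2 difference 0.60 ± 0.11, SE; adjusted p = 0.0063, limma). Its call held without any 1 animal but not within either run of animal numbers (0.48, adjusted p = 0.205; 0.72, adjusted p = 0.0526). Its partner chains did not pass: Cd3g differed by 0.24 (adjusted p = 0.367) and Cd247, the zeta chain, by -0.0011 (adjusted p = 0.999). The 95% interval of the Cd247 difference, -0.71 to 0.70, spans the Cd3e value. Cd3d, the delta chain, was dim in control muscle. The coreceptors Cd4 and Cd8a differed by 0.005 (95% interval -0.37 to 0.38) and 0.20 (-0.039 to 0.44), and neither was called.

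The receptor Cd160, found on natural killer and cytotoxic T cells, and the B cell receptor chain Cd79b were lower. Cd160 measured 342, 307, 350 and 304 in controls and 268, 186, 230 and 236 in knockouts. It fell 1.43-fold (log2 difference -0.51 ± 0.13, SE; adjusted p = 0.034, limma). Cd79b measured 906, 743, 820 and 861 in controls and 577, 641, 507 and 676 in knockouts. It fell 1.39-fold (-0.48 ± 0.13; adjusted p = 0.039). The animals did not overlap in either gene, although single arrays did. Each call was lost with all 24 arrays fitted and the animal as a random block, and on leaving out 6 of the 8 animals in turn. It was kept for Cd160 without control animal 2 or knockout animal 1, and for Cd79b without control animal 2 or knockout animal 4. Cd79a, which pairs with Cd79b in the B cell receptor, lay between 1400 and 1830 in controls and between 1206 and 1364 in knockouts, a difference of -0.36 that did not pass (adjusted p = 0.087). Cd22, an inhibitory lectin of B cells, lay at -0.32 (adjusted p = 0.131) and the T cell adhesion receptor Cd2 at -0.42 (adjusted p = 0.102).

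**Figure D2:**
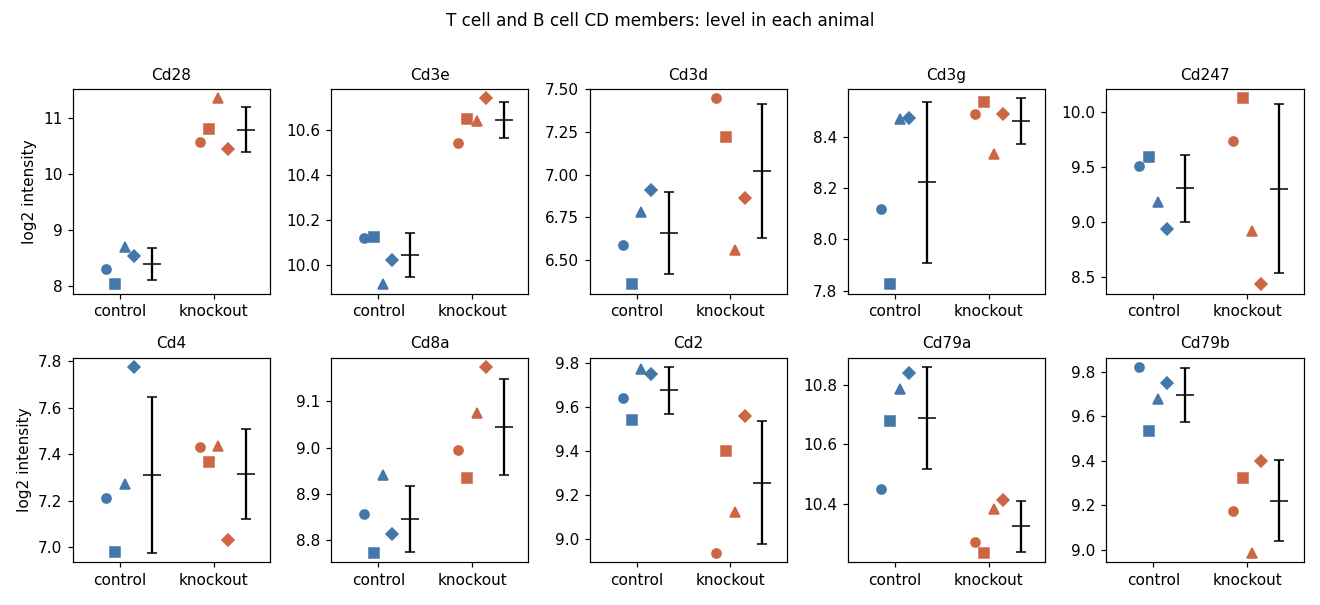
Log2 intensity of 10 T cell and B cell members in each animal (circle, square, triangle and diamond for animals 1 to 4; blue control, orange knockout), with the group mean and SD in black; each panel has its own axis. The Cd28 and Cd3e groups lie apart with the knockout above, the Cd79a and Cd79b groups lie apart with the knockout below, and the Cd3d, Cd3g, Cd247, Cd4, Cd8a and Cd2 groups overlap.

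Of the 28 lymphocyte and shared leukocyte members, 2 rose and 2 fell (14.3%, beside 9.28% of all genes), and 24 were not called. Their median difference was 0.17, with 19 positive and 9 negative values, beside a median of -0.066 over all genes. Without control animal 2 the median was 0.053 and without knockout animal 3 it was 0.114. Within the lower run of animal numbers it was 0.306 and within the higher run -0.141, with 11 positive and 17 negative values. Adgre5, annotated as Cd97, is an adhesion receptor that binds CD55, and its groups did not overlap (720 to 837 in controls, 863 to 1159 in knockouts; 0.32, adjusted p = 0.158). Cd53, a leukocyte tetraspanin, was highest in knockout animal 3 at 4865, against 1657 to 2473 over the controls and 1880 to 2241 in the other knockouts (0.40, adjusted p = 0.387; 0.094 without knockout animal 3). Cd40, a receptor of B cells and other antigen-presenting cells, had 2 rows that disagreed. Its brighter row differed by 0.15 (adjusted p = 0.718), while its other row fell by 0.69 on the log2 scale (adjusted p = 0.017 in the fit of every row), from a mean of 2550 to 1578, with no overlap. Of 16 measured lymphocyte markers without a CD name, 1 rose and 0 fell (6.25%, beside 9.28% of all genes). The rise was that of the chemokine Ccl5 (1.55-fold, adjusted p = 0.042, kept only without control animal 2 or knockout animal 3). Among the 16 markers Il2rg, Ms4a1, Blk, Gzmb, Prf1, Klrd1, Ncr1 and Nkg7 were dim in both groups. The summed intensity of the 16 was 6835 to 7831 in control and 7309 to 9783 in knockout animals, highest in knockout animal 3. The part of lymphocyte number in the Cd28 and Cd3e values was not tested.

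In the macrophage and myeloid group, Cd209f and Cd163 fell and Cd302 rose. Cd209f belongs to the mouse relatives of the pathogen-binding lectin DC-SIGN. Its intensity was 980, 1286, 1122 and 2175 in controls and 979, 707, 529 and 362 in knockouts, so control animal 1 and knockout animal 1 were all but equal. It fell 2.19-fold (log2 difference -1.13 ± 0.31, SE; adjusted p = 0.042, limma). Cd163, the scavenger receptor for haemoglobin bound to haptoglobin, marks resident tissue macrophages. It stood at 916, 1891, 1654 and 1955 in controls and 1070, 994, 582 and 680 in knockouts. Control animal 1 lay below knockout animals 1 and 2, and the other controls above every knockout. Cd163 fell 1.91-fold (-0.93 ± 0.26, SE; adjusted p = 0.049).

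The falls of these lectin and scavenger genes were larger in 1 run of animal numbers than in the other. Cd209f differed by -0.43 in the lower run and -1.84 in the higher, Cd163 by -0.35 and -1.52. The difference between the runs was not tested. With the run as a block neither gene was called. Leaving out an animal ended the Cd209f call for each except knockout animal 1, and the Cd163 call for each except control animal 1 and knockout animal 1. Cd163 was also not called under quantile normalization (adjusted p = 0.052) or cyclic loess (0.0556). Cd209g, the neighbour that shares its promoter run with Cd209f, measured 489, 513, 614 and 1246 in controls and 446, 443, 298 and 273 in knockouts. Its groups did not overlap and it was not called (-0.89 ± 0.28, SE; adjusted p = 0.076), with -0.17 and -1.62 in the 2 runs. Probe positions were not given, so signal of 1 lectin's RNA on another's probe was not tested. All 7 measured Cd209 genes had negative differences, from -1.13 to -0.042, and 1 was called; the signs were the same under quantile and cyclic loess normalization. With array weights, without control animal 2, without knockout animals 2, 3 or 4, without hybridisation 1 and without the 2 arrays of highest 5th percentile, 1 of the 7 was positive. Cd209b lay between 5133 and 5859 in controls and between 3652 and 5120 in knockouts (-0.32, adjusted p = 0.167). Cd209d differed by -0.17 (adjusted p = 0.355).

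Cd302, a C-type lectin receptor of myeloid cells, went the other way. It measured 1288, 1524, 1432 and 1576 in controls and 2274, 3064, 1863 and 1986 in knockouts, with no overlap between animals or arrays. It rose 1.55-fold (log2 difference 0.63 ± 0.16, SE; adjusted p = 0.031, limma). The call was lost without control animal 1, control animal 3 or knockout animal 1, and without hybridisation 1 or 3. It was also lost with the higher floor (adjusted p = 0.0535) and missed within each run of animal numbers. The value was 0.91 in the lower run and 0.36 in the higher (adjusted p = 0.138 and 0.141).

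Cd68, a lysosomal glycoprotein of macrophages, was, like Cd300lb, Cd14, Cd36, Cd55 and the second row of Cd40, picked out after its values were seen. So were Cd2, Cd3d, Cd3g, Cd247, Cd4, Cd8a, Cd47 and Cd82. It was at 1301, 1241, 998 and 1357 in controls and at 946, 1712, 10903 and 2035 in knockouts. Knockout animal 3 lay far above all others, and knockout animal 1 below every control. The difference of 1.01 did not pass (adjusted p = 0.305) and was 0.29 without knockout animal 3. Cd300lb, an activating receptor of myeloid cells, and Cd14, the coreceptor for lipopolysaccharide, were also highest in that animal, at 2245 and 2665. The other 3 knockout animals lay between 733 and 829 for Cd300lb and between 903 and 1394 for Cd14. Without that animal the difference was 0.40 for Cd300lb and -0.21 for Cd14, in place of 0.78 and 0.11; none of these passed. Cd74, the invariant chain of MHC class II, ranged from 3758 to 10370 in controls and from 3236 to 7940 in knockouts (-0.19, adjusted p = 0.767). Its other rows gave -0.14 and -0.32. H2-Aa and Ciita were among the 4 measured genes of the CD74 and class II list, none of which was called; the smallest p there was that of the protease gene Ctss (1.84, adjusted p = 0.056). Cd300ld, another myeloid receptor of the Cd300 family, lay between 2937 and 3719 in controls and between 2102 and 3787 in knockouts (-0.19, adjusted p = 0.552).

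**Figure D3:**
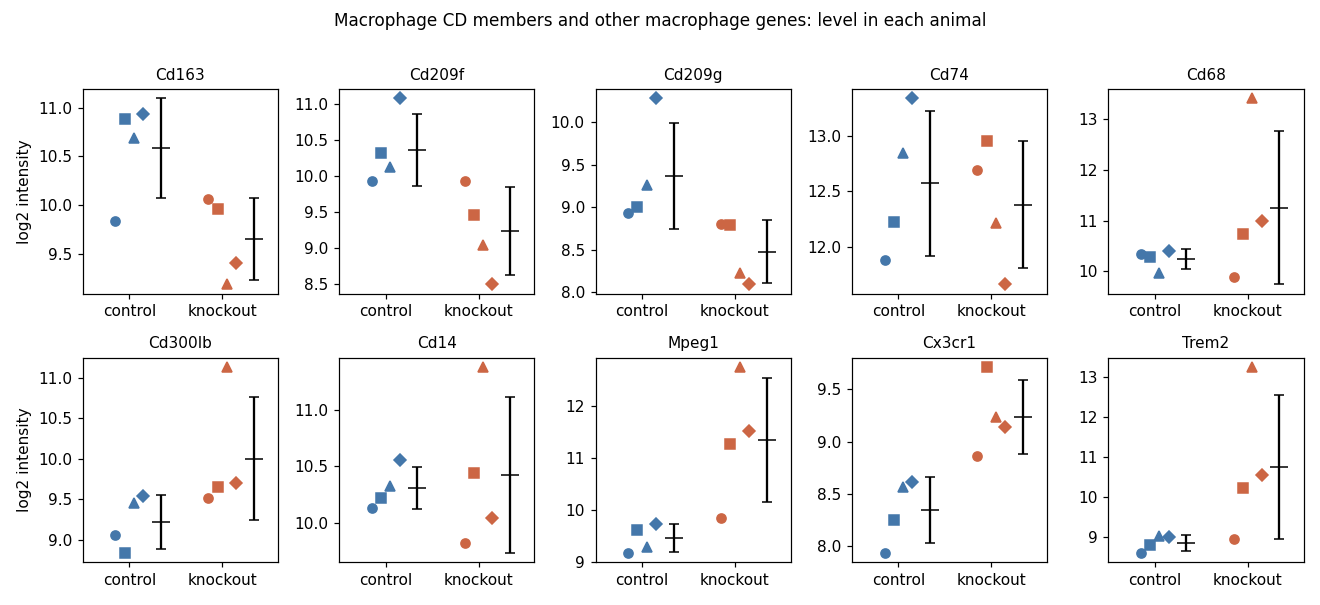
Log2 intensity of 7 myeloid members and of the macrophage genes Mpeg1, Cx3cr1 and Trem2 in each animal (circle, square, triangle and diamond for animals 1 to 4; blue control, orange knockout), with the group mean and SD in black; each panel has its own axis. Knockout animals 3 and 4 are lowest for Cd163, Cd209f and Cd209g, and knockout animal 3 is highest for Cd68, Cd300lb, Cd14, Mpeg1 and Trem2.

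Over the 28 macrophage and myeloid members, 1 rose and 2 fell (10.7%, beside 9.28% of all genes). The other 25 were not called, and the median difference was -0.062. Of 22 measured macrophage markers without a CD name, 2 rose and 0 fell, and the median was 0.35. That is 9.09% called, beside 9.28% of all genes in either direction and 4.28% higher. With control animal 1 dropped, 0 rose, where 5.99% of all genes were called. Dropping control animal 3, knockout animal 2 or knockout animal 4 gave 1 rise each (6.83%, 6.98% and 6.85% of all genes). Dropping control animal 4 gave 3 rises (6.77%), and dropping knockout animal 1 gave 6 (7.47%). The median was 0.199 without control animal 1, 0.191 without knockout animal 3, 0.527 without control animal 4 and 0.068 with array weights. Mpeg1, which encodes the pore-forming perforin-2, rose 3.70-fold (adjusted p = 0.027), a call that held without knockout animal 3 (0.037) and was lost without control animals 1 or 3 or knockout animals 2 or 4 (highest adjusted p 0.0854). Cx3cr1, the fractalkine receptor, rose 1.86-fold (adjusted p = 0.018; 0.0572 without control animal 1). The summed intensity of the 22 was 28507 to 57886 in controls and 39511 to 91564 in knockouts, highest in knockout animal 3. Only Fcgr1 among them was dim in a group, the knockout. Of 9 genes for clearing haemoglobin and haem, none was called; haptoglobin (Hp), the partner of CD163, had the smallest p, at -0.87 (adjusted p = 0.081). The red cell gene Alas2 fell 2.06-fold (adjusted p = 0.019; up to 0.0561 without control animal 3 or knockout animal 3), and the other measured red cell gene, Slc4a1, was dim in knockout muscle. Of 6 neutrophil markers none was called (S100a9, -0.57, adjusted p = 0.207), with a summed intensity of 1966 to 3045 in controls and 2085 to 2300 in knockouts. The part of macrophage number in any of these values was not tested.

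None of the 4 endothelial and stromal members was called, and all 4 had negative differences (median -0.27), also under quantile and cyclic loess normalization; Cd248 turned positive without control animal 3, knockout animal 4 or hybridisation 1 and within the lower run of animal numbers. Cd34, a sialomucin of capillary endothelium and progenitor cells, lay between 16278 and 16938 in controls. Knockout animals 1 to 4 stood at 14409, 17056, 11123 and 10953, so knockout animal 2 was above every control and the others below (-0.33, adjusted p = 0.212). Cd300lg, a capillary endothelial receptor, differed by -0.37 (adjusted p = 0.232), Cd93 by -0.22 (adjusted p = 0.411) and Cd248, the pericyte and fibroblast protein endosialin, by -0.11 (adjusted p = 0.825). The lower bounds of their 95% intervals ran from -0.76 to -0.56. Of 20 endothelial markers without a CD name, 0 rose and 4 fell (20%, beside 5.01% of all genes lower), with a median of -0.43. Under quantile normalization 8 fell, where 14.5% of all genes were called in either direction. Without knockout animal 2 also 8 fell, where 6.98% of all genes were called. On leaving out any single control animal, or knockout animal 3 or 4, 3 fell (5.33% to 9.54% of all genes called). Within the lower run of animal numbers 0 fell (0.349%). Of the 4 falls, that of Emcn kept its call in 2 of the 8 cases with an animal left out. Gpihbp1, Icam2 and Erg kept theirs in all 8. All 20 lay above the dim level. Gpihbp1, which holds lipoprotein lipase on capillaries, fell 2.09-fold, Icam2 1.74-fold and the transcription factor Erg 1.68-fold (adjusted p = 0.0026, 0.010 and 0.0080). Their summed intensity was 316132 to 380312 in controls and 233186 to 314128 in knockouts. Of 6 pericyte and smooth muscle genes 3 fell (50%, beside 5.01% of all genes lower). They were Tagln (1.50-fold), Rgs5 (1.52-fold) and Acta2 (1.54-fold), with adjusted p = 0.0099, 0.013 and 0.015 (limma).

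Among the 19 members of broad expression, Cd276 and Cd24a rose and none fell (10.5% called, beside 9.28% of all genes). Under quantile or cyclic loess normalization 3 fell, where 14.5% and 13.9% of all genes were called. With all 24 arrays and the animal as a random block 4 fell (17.7% of all genes called), and with array weights 5 (20.3%). Cd276, also called B7-H3, is an immune ligand of the B7 family. It measured 1209, 1476, 1103 and 763 in controls and 2683, 3156, 2982 and 3423 in knockouts, with no overlap between animals or arrays. It rose 2.75-fold (log2 difference 1.46 ± 0.18, SE; 95% interval 1.06 to 1.87; adjusted p = 7.0e-04, limma). The call was missed only within the lower run of animal numbers (1.12, adjusted p = 0.0849; 1.80 in the higher run). Cd24a, a small sialylated protein anchored in the membrane by lipid, measured 114907, 109853, 90918 and 115403 in controls and 177014, 206458, 184108 and 205303 in knockouts. It rose 1.80-fold, again with no overlap (0.85 ± 0.12; adjusted p = 0.0017). The call held without any 1 animal and was missed within each run (0.77 and 0.92; adjusted p = 0.127 and 0.059).

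**Figure D4:**
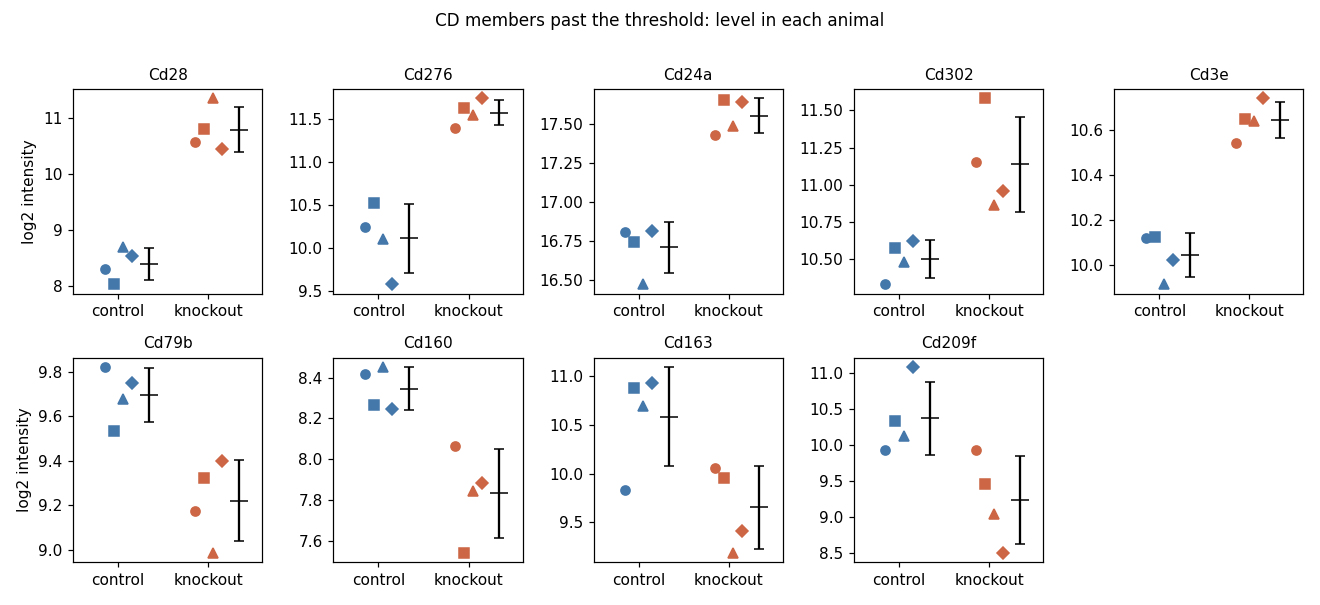
Log2 intensity of the 9 members that changed, in each animal (circle, square, triangle and diamond for animals 1 to 4; blue control, orange knockout), with the group mean and SD in black; each panel has its own axis. The knockout lies above control in Cd28, Cd276, Cd302, Cd3e and Cd24a; in Cd163 control animal 1 lies below knockout animals 1 and 2.

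Several broad members lay apart between groups without passing the test. Cd320, the receptor for vitamin B12 bound to transcobalamin, was at 3728 to 4841 in controls and 2795 to 3437 in knockouts (-0.42, adjusted p = 0.061). Cd200, a ligand that restrains myeloid cells, was at 832 to 990 and 563 to 745 (-0.41, adjusted p = 0.065). Cd81, a tetraspanin of most cells, was at 89437 to 117585 and 70415 to 86625 (-0.39, adjusted p = 0.078). In each of these the knockout was the lower group. All 3 passed under quantile normalization (adjusted p = 0.0342, 0.0323 and 0.0489) and cyclic loess (0.0361, 0.0467 and 0.0453), and none passed when any 1 animal was left out. Cd36, the fatty acid transporter of fibres, capillaries and macrophages, stood at 9421, 8896, 6719 and 7167 in controls and 6669, 6791, 5503 and 4638 in knockouts, so only knockout animal 2 reached the lowest control (-0.45, adjusted p = 0.111). Its other row gave -0.47. Of 11 measured genes of fatty acid uptake 2 fell (18.2%, beside 5.01% of all genes lower) and 0 rose. The falls were Gpihbp1 and the triglyceride synthesis enzyme Dgat2 (2.09-fold, adjusted p = 0.0064, limma). Lpl and Cav1 were dim in both groups. Cd55, which speeds the decay of complement enzymes on the cell surface, differed by 0.52 (adjusted p = 0.102; 0.0415 under quantile normalization and 0.0315 under cyclic loess). Of 6 complement genes 1 rose and none fell (16.7%, beside 9.28% of all genes). The rise was that of Clu, a secreted inhibitor of complement lysis (2.28-fold, adjusted p = 0.00018).

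The 7 CD tetraspanins Cd9, Cd37, Cd53, Cd63, Cd81, Cd82 and Cd151 had no call, and their differences ran from -0.39 to 0.40. Cd151, which binds laminin receptors, differed by -0.093 (95% interval -0.34 to 0.15), and Cd82 by -0.019 (-0.27 to 0.24). Of 19 tetraspanins and partners without a CD name, 4 fell and 1 rose (26.3%, beside 9.28% of all genes). Tspan12, which aids Wnt receptor signalling in vessels, fell (95% interval of the log2 difference -1.30 to -0.70, adjusted p = 0.0013), as did Tspan8 (2.44-fold, adjusted p = 0.0026) and Tspan3 (1.70-fold, adjusted p = 0.0068). Cd164, a sialomucin, differed by 0.069 (95% interval -0.25 to 0.39). Cd47, the signal against phagocytosis, differed by -0.23 (adjusted p = 0.291), and none of 8 genes of that recognition was called; its receptor Sirpa had the smallest p (0.55, adjusted p = 0.142). Cd2ap, the intracellular adaptor, differed by -0.098 (adjusted p = 0.790).

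Of 48 measured CD antigens that go by other symbols, 1 rose and 6 fell (14.6%, beside 9.28% of all genes). Their median was -0.095. The falls numbered 2 without knockout animals 1 or 3 (7.47% and 5.33% of all genes called). They numbered 3 without control animals 1 or 3 (5.99% and 6.83%), and 4 without control animal 2 or knockout animal 4 (9.54% and 6.85%). With all 24 arrays and the animal as a random block, 5 rose and 10 fell, where 17.7% of all genes were called. On leaving out each of the 8 animals, Itgax kept its call once, Ifngr1 in 2 cases, Fas in 3 and Nt5e in 5, while Itga4, Icam2 and Il6ra kept theirs in all 8. The integrin chain Itga4 (CD49d) fell 2.55-fold (adjusted p = 0.00013), from intensities of 657 to 837 in controls to 271 to 331 in knockouts. The receptor Il6ra (CD126) rose 2.61-fold (adjusted p = 6.1e-04). Icam2 (CD102) is given above with the endothelial genes.

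All 6 measured myofibre genes lay above the dim level in both groups, and none was called. Their median intensity was 375551 in control and 333543 in knockout muscle. All 6 genes had negative differences, from -0.35 to -0.12, with a median of -0.19 beside -0.066 over all genes. Pvalb had the smallest p of these (-0.35, adjusted p = 0.282). No fibroblast marker of 10 was called (Mfap5, -0.42, adjusted p = 0.086). Of 7 satellite cell markers 1 fell and 0 rose (14.3%, beside 9.28% of all genes). The fall was that of Calcr, from 166 to a level that was dim in the knockout, at least 1.34-fold (adjusted p = 0.0022).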

How the data were processed

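Total RNA of tibialis anterior from 8 mice was labelled and hybridised to 24 one-channel arrays, 3 per animal; per the labels the dye is given as Cy3 in one field and Cy5 in another. The deposited values are linear intensities that the authors scaled to a common median of 626 on every array; neither scanner, background correction nor build is stated. Of 26423 rows, 20377 carry 1 gene symbol in the platform annotation and 6046 none; 2126 older symbols were updated through RefSeq's gene table and 38 were kept as annotated. Values under the 5th percentile of all values (38.8) were raised to it, converted to log2 and averaged over the 3 hybridisations of an animal. A gene is represented by its row of highest mean; 10 members have several rows, which differ in sign in 5. The test was limma (version 3.58.1, R 4.3.3), knockout against control, over 17742 genes, two-sided, with Benjamini-Hochberg adjustment at 0.05; the procedure was tested on simulated data. Precision is limited by 4 animals a group: the median SE of a member's log2 difference was 0.17. An exact two-sided permutation test over 8 animals cannot give a p below 0.0286, which each of the 16 members without overlap reached.

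By rule, members are named where they passed or where the groups did not overlap. The rule also names those among the 4 brightest or the 3 of smallest p in their expression group. Members picked outside this rule after their values were seen are listed in the text beside Cd68. Cd63 and Cd99, named as dim rows, and Cd9 and Cd37, named with the tetraspanins, are outside the rule too. Of the other lists, up to 3 passing genes of smallest p are named, or the 1 of smallest p. The members, lists and tests were chosen with earlier results of these data known. Alternatives covered normalization, the floor, the treatment of rows, blocks, weights and left-out animals.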

Additional observations from a re-analysis of the deposited data

Results flagged for a closer look

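Among the 29 members named by rule, 58 groups of 4 animals were examined for an animal far from the other 3. An animal of this kind was found in 3 groups, where chance gives about 1 in 20. Adgre5 was at 9.491 (log2 intensity) in control animal 4, against 9.676 to 9.709 in the other controls. Cd151 was at 14.61 in control animal 3, against 14.81 to 14.85. Cd93 was at 13.02 in knockout animal 2, against 12.50 to 12.56 in the other knockouts. None of these 3 members was called. Members named outside the rule were not examined in this way. Of those, Cd300lb was at 11.13 in knockout animal 3, against 9.52 to 9.70 in the other knockouts.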

How the results depend on the processing

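Of the 9 calls, Cd28 was kept in all 26 other settings, Cd276 in 25, Cd24a and Cd3e in 24, Cd302 in 18, Cd160 in 14, Cd79b in 13, Cd209f in 12 and Cd163 in 11; no called member changed sign. The number of members called rose to 18 with all 24 arrays fitted and the animal as a random block (17.7% of all genes called), and to 19 with array weights (20.3%), beside 9.28% of all genes in the reported fit. It fell to 1 in the lower and 3 in the higher run of animal numbers, where 2 animals a group remain and 0.349% and 2.86% of all genes were called. It ran from 4 to 7 on leaving out an animal or a hybridisation. Quantile normalization gave 13 calls (6 higher and 7 lower, 14.5% of all genes) and cyclic loess 12 (13.9%). Leaving out the 2 arrays of highest 5th percentile, chosen after seeing the data, gave 11 (11.3%). Both of those arrays were of controls in the higher run, hybridisation 1 of control animals 3 and 4 (5th percentiles 107 and 125). In the settings above whose share is given, that share moved in the same direction as the members' count. It did not in every setting. Without control animal 2, 9.54% of all genes were called, and with the higher floor 10.1%, while fewer members were called than in the reported fit. The replicate block by hybridisation number gave 16 (16.8% of all genes), against 18 without it. Deviations from the animal mean had a median correlation of 0.042 between arrays of the same number (34 of 84 pairs over 0.1). Between arrays of different numbers it was -0.017 (48 of 168 pairs). Single pairs of the same number ran from -0.632 to 0.749, so the medians do not settle whether the numbers pair some arrays. The median over the members was -0.173 within the higher run and ran from -0.084 to 0.020 in the other settings, with a sign that was not fixed. The cause of these shifts was not tested. At the dim level of 125, 9 members were near background in both groups.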
